A study of Homo sapiens with 12 samples.

Results

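The comparison set resting THP-1 cells kept for 4 h at 10% CO2 against cells kept at 5% CO2, both without lipopolysaccharide (LPS), and covered all genes. It used 6 of the 12 libraries of the series, 3 per group, chosen by their sample titles. THP-1 is an established human monocytic leukaemia line. The cells of every group carried a lentiviral non-target shRNA, so the 5% CO2 control is a transduced line and not the parental one, and whether it is a clone is not given in the sources used here. Cells were moved into gas chambers set to 5% or 10% CO2 in buffered DMEM with serum. After 2 h, cells of the other 2 groups received LPS at 2.5 µg/ml for a further 2 h, one group at each CO2 level, and the resting cells spent the same time without it. Those 6 libraries enter here through the shared estimate of the spread and as a second reading of the CO2 difference. The sources used here do not tell whether the replicates were separate cultures; every p-value here therefore measures the spread among the sequenced samples, which may be technical.

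Carbon dioxide crosses cell membranes and is hydrated, with carbonic anhydrase as the catalyst, to bicarbonate and a proton. A rise in CO2, called hypercapnia, therefore normally lowers pH as well. Buffering the medium is meant to hold pH, so that a response to CO2 itself can be read. Raised CO2 is known to dampen NF-κB-driven cytokine genes in macrophages and monocytes, and the NF-κB subunit RelB is known to respond to it. Raised CO2 is also known to alter mitochondrial function in several cell types.

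Total counts ranged from 17.1 to 21.1 M in the 6 libraries. All 12 monocyte or THP-1 markers examined were measured, and their summed level was 2583 to 3256 CPM (counts per 1e6 counts, with TMM-scaled library sizes) at 5% CO2 and 2286 to 2858 CPM at 10% CO2. Of 27 markers of T, B, NK, erythroid, megakaryocyte, neutrophil, epithelial, fibroblast and endothelial cells, 5 were at 0 and 15 never passed 3 counts in a library. The other-cell markers summed to 39.6 to 44.4 CPM at 5% CO2 and 36.0 to 43.0 CPM at 10% CO2, mostly CXCR2 and NKG7. Genes of mitochondrial DNA held 1.45%, 1.96% and 1.31% of all counts at 5% CO2 and 3.05%, 2.91% and 2.01% at 10% CO2. The difference was 1.08 percentage points (exact permutation test, two-sided p = 0.1, the smallest that 3 against 3 allows). This share can follow RNA quality as well as gene expression. It was higher in the same libraries in which the gene groups described here differed, and its part in the results was not tested.

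Of 16402 genes tested, 240 (1.46%) differed between 10% and 5% CO2, with 131 higher (0.799%) and 109 lower (0.665%) at 10% CO2 (edgeR's quasi-likelihood test, p adjusted over all genes by Benjamini and Hochberg, threshold 0.05). These are the genes called here, and "rose" and "fell" refer to them. The changes were small: the median absolute log2 change of called genes was 0.52, against 0.16 for all genes, 152 of the 240 changed less than 1.5-fold and 15 changed at least 2-fold (5 higher and 10 lower). In bulk RNA, fewer cells of one kind and less of a transcript per cell cannot be told apart. For each of the 240 genes all 3 libraries of one group lay above all 3 of the other. At an unadjusted p under 0.05, 1405 genes (8.57%) were higher and 1457 (8.88%) lower. Among all genes tested, all 3 libraries at 10% CO2 lay above all 3 at 5% CO2 for 1717 genes (10.5%) and below them for 1672 (10.2%). A mean of at least 5 CPM was reached by 220 of the 240 called genes and by 10786 of the 16402 tested. The share called among all genes is therefore a low base for lists of well-expressed genes.

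**Figure D1:**
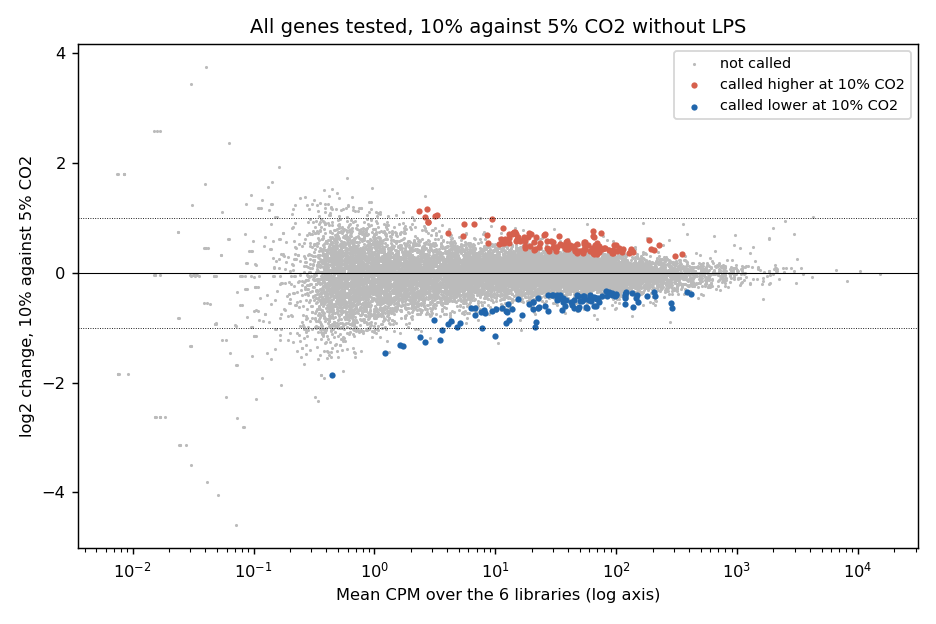
Each point is 1 of the 16402 genes tested, with its mean CPM over the 6 libraries on a log axis and its log2 change at 10% against 5% CO2. Called genes are coloured by direction, and dotted lines mark a 2-fold change, which 15 of the 240 called genes reach.

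The calls depended on single libraries. Without 10% CO2 replicate 2, edgeR called 0 genes (1845 at an unadjusted p under 0.05, smallest adjusted p = 0.122). Among the controls, leaving out replicate 1 left 1 gene called, leaving out replicate 2 left 4 and leaving out replicate 3 left 139. The count rose to 511 when the first library at 10% CO2 was dropped. It was 143 when the third library at 10% CO2 with LPS, which enters through the spread, was dropped. DESeq2 called 655 genes (347 higher, 2.12%, and 308 lower, 1.88%), among them 237 of the 240. The 65 called genes that a naming rule selected kept their direction of change in every alternative run. All 65 lost their call without 10% CO2 replicate 2 and without 5% CO2 replicate 1.

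**Figure D2:**
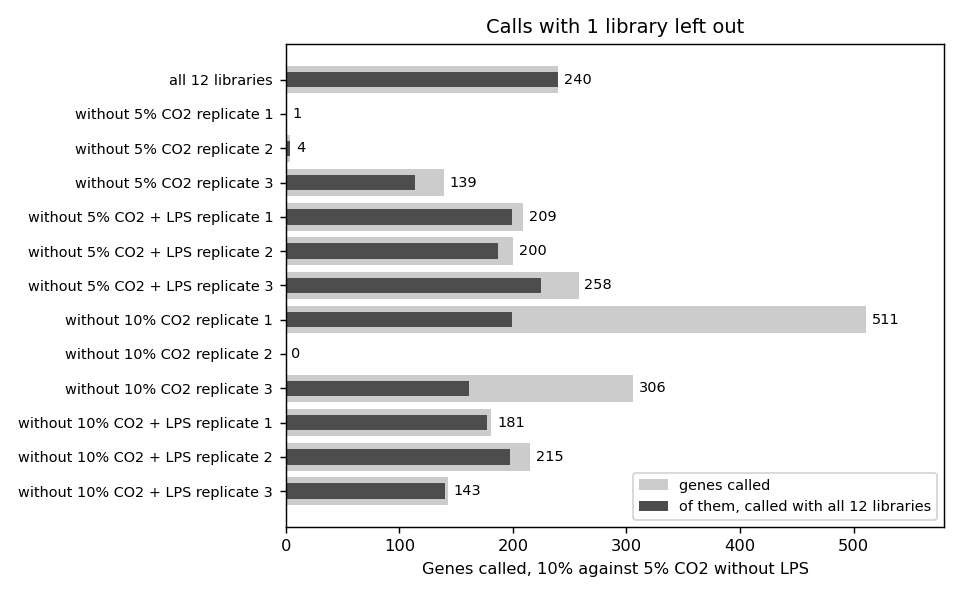
Bars give the number of genes called between 10% and 5% CO2 without LPS when all 12 libraries are used and when 1 is left out; the dark part counts genes that are also among the 240. The 3 shortest bars, at 0, 1 and 4, belong to the second library at 10% CO2 and to the first and second at 5% CO2, and the tallest, at 511, to the first library at 10% CO2.

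The 15 largest rises at 10% CO2 were taken among called genes with a symbol, a mean of at least 5 CPM and no overlap between the groups. SERPINB2, which encodes the plasminogen activator inhibitor PAI-2, was at 5.15, 5.79 and 7.89 CPM at 5% CO2 and 10.8, 15.4 and 11.0 CPM at 10% CO2 (log2 change 0.98 ± 0.20, adjusted p = 0.0232). All its libraries at 10% CO2 were above 10 CPM and all at 5% CO2 below 8 CPM. POLR3G, a subunit of RNA polymerase III, was at 4.20, 5.07 and 4.69 CPM at 5% CO2 and 9.11, 9.63 and 7.24 CPM at 10% CO2 (log2 change 0.90 ± 0.20, adjusted p = 0.0309). NARS2, the mitochondrial asparaginyl-tRNA synthetase (ENSG00000137513, chromosome 11, 78435961 to 78574874, GRCh38), was at 8.54, 8.21 and 8.12 CPM at 5% CO2 and 13.8, 16.1 and 14.2 CPM at 10% CO2 (log2 change 0.82 ± 0.13, adjusted p = 0.0124). Its 3 libraries at 5% CO2 were nearly level, and each library at 10% CO2 exceeded them by more than the spread of either group. PYCR1, which makes proline in mitochondria (ENSG00000183010, chromosome 17, 81932384 to 81942412), was at 51.6, 61.8 and 55.3 CPM at 5% CO2 and 81.0, 92.5 and 104 CPM at 10% CO2 (log2 change 0.72 ± 0.11, adjusted p = 0.0124). OMA1, a protease of the inner mitochondrial membrane that responds to stress, was at 9.13, 10.4 and 10.1 CPM at 5% CO2 and 15.2, 17.9 and 15.5 CPM at 10% CO2 (log2 change 0.71 ± 0.14, adjusted p = 0.0182). Both genes were high in all 3 libraries at 10% CO2, with no overlap.

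TSEN54, a subunit of the endonuclease that splices tRNA, was at 15.1, 16.3 and 14.1 CPM at 5% CO2 and 21.3, 25.8 and 26.9 CPM at 10% CO2 (log2 change 0.70 ± 0.12, adjusted p = 0.018). DPH5, a methyltransferase of diphthamide synthesis on elongation factor 2, was at 9.67, 10.4 and 11.8 CPM at 5% CO2 and 18.3, 19.8 and 15.7 CPM at 10% CO2 (log2 change 0.75 ± 0.14, adjusted p = 0.018). CARNMT1, which methylates carnosine and histidine residues, was at 17.3, 18.7 and 23.0 CPM at 5% CO2 and 35.1, 34.9 and 26.3 CPM at 10% CO2 (log2 change 0.71 ± 0.12, adjusted p = 0.018), with 10% CO2 replicate 3 the lowest of its group. RIOX2, a ribosomal oxygenase, was lowest in that library of its group as well, at 9.94, 11.0 and 10.6 CPM at 5% CO2 and 16.4, 20.5 and 14.5 CPM at 10% CO2 (log2 change 0.71 ± 0.13, adjusted p = 0.0182). The secreted glycoprotein hormone gene STC2 was instead highest in 10% CO2 replicate 3, at 14.5, 13.8 and 14.9 CPM at 5% CO2 and 22.3, 20.4 and 29.1 CPM at 10% CO2 (log2 change 0.73 ± 0.14, adjusted p = 0.0184). The remaining rises were CD63-AS1 (log2 change 0.88 ± 0.19, adjusted p = 0.0285), the RNA-binding protein gene RBM14 (0.75 ± 0.16, adjusted p = 0.0327), the homeobox gene PITX1 (0.75 ± 0.18, adjusted p = 0.0495), the carbonyl reductase gene CBR1 (0.73 ± 0.18, adjusted p = 0.0466) and the mismatch repair gene PMS1 (0.71 ± 0.16, adjusted p = 0.0324). For PITX1 the lowest library at 10% CO2 and the highest at 5% CO2 were almost equal, at 13.1 and 13.0 CPM. DPH5 shares its span with DPH5-DT, which was also called higher (1.04, adjusted p = 0.0211). CD63-AS1 lies antisense to CD63, and 13 of the 30 genes with the largest changes overlap another tested gene. The strand setting of the counts is not given in the sources used here, so reads of such pairs could not be assigned with certainty.

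The 15 largest falls were chosen by the same rule, and BCL3, NFKBID and BMF among them are described with their lists. RFX8, a DNA-binding factor of the RFX family, was at 13.1, 14.8 and 13.0 CPM at 5% CO2 and 4.69, 6.03 and 7.64 CPM at 10% CO2 (log2 change −1.15 ± 0.18, adjusted p = 0.0124). All its libraries at 10% CO2 were below 8 CPM and all at 5% CO2 above 12 CPM. TTLL3, a tubulin glycylase (ENSG00000214021, chromosome 3, 9808086 to 9855138), was at 34.4, 34.0 and 33.3 CPM at 5% CO2 and 21.8, 21.3 and 20.05 CPM at 10% CO2 (log2 change −0.69 ± 0.11, adjusted p = 0.0124), with the libraries of each group nearly level. B3GNT7, a glycosyltransferase that extends poly-N-acetyllactosamine chains, was at 30.2, 32.9 and 22.0 CPM at 5% CO2 and 13.8, 13.6 and 15.5 CPM at 10% CO2 (log2 change −0.98 ± 0.21, adjusted p = 0.0328). Its libraries at 10% CO2 were level, whereas 5% CO2 replicate 3 was lower than the other two. FBXO32, the ubiquitin ligase subunit atrogin-1, was at 6.28, 7.55 and 6.17 CPM at 5% CO2 and 3.96, 3.30 and 3.31 CPM at 10% CO2 (log2 change −0.92 ± 0.21, adjusted p = 0.034). KLHL24, another ubiquitin ligase adaptor, was at 11.9, 9.70 and 13.6 CPM at 5% CO2 and 8.65, 6.18 and 6.80 CPM at 10% CO2 (log2 change −0.70 ± 0.17, adjusted p = 0.0425). CREBRF, a regulator of the CREB3 factor, was at 10.6, 9.26 and 11.0 CPM at 5% CO2 and 7.52, 5.98 and 5.03 CPM at 10% CO2 (log2 change −0.74 ± 0.17, adjusted p = 0.0411), and IKZF4, which encodes the zinc finger factor Eos, at 15.5, 16.1 and 14.9 CPM at 5% CO2 and 9.29, 7.76 and 11.3 CPM at 10% CO2 (log2 change −0.71 ± 0.17, adjusted p = 0.0425). The others were LY6G5B (log2 change −1.01 ± 0.20, adjusted p = 0.0222), the adaptor gene BCAR3 (−0.92 ± 0.20, adjusted p = 0.0325), ZSWIM4 (−0.77 ± 0.15, adjusted p = 0.0184), ATOSB (−0.76 ± 0.16, adjusted p = 0.0306) and SPSB1, a SOCS-box adaptor (−0.69 ± 0.16, adjusted p = 0.0433). LY6G5B overlaps CSNK2B on the same strand and TTLL3 overlaps ARPC4-TTLL3, which limits both counts.

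**Figure D3:**
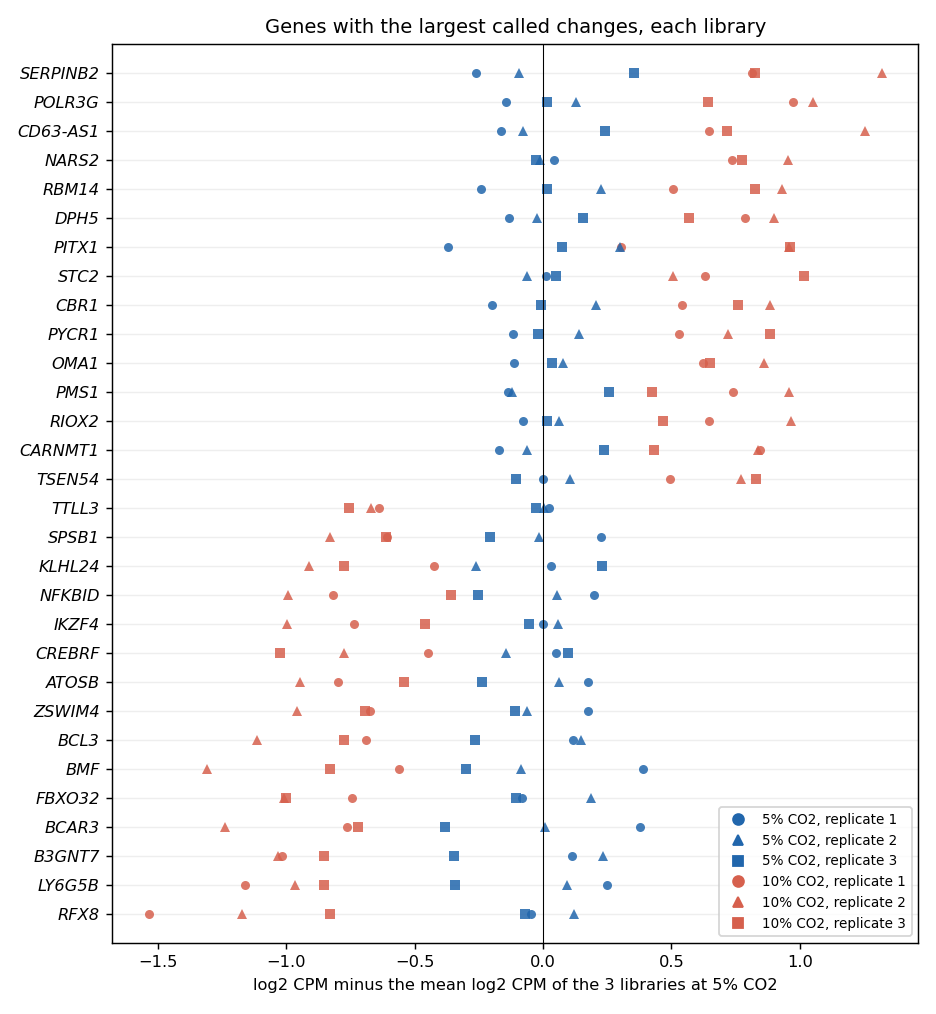
Each row is 1 of the 15 largest rises or 15 largest falls, and each symbol is 1 library, drawn as its log2 CPM minus the mean log2 CPM of the 3 libraries at 5% CO2 (blue, 5% CO2; red, 10% CO2; shape, replicate number). The groups do not overlap in any row, a condition of the choice, and the gap is smallest for PITX1, at 13.0 against 13.1 CPM.

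Genes for building ribosomes made up the list with the most called members. Of 88 tested factors that assemble the ribosomal subunits, 12 rose and 0 fell, 13.6% against 0.799% of all genes called higher. All 3 libraries at 10% CO2 lay above all 3 at 5% CO2 for 50 of the 88 (56.8%, against 10.5% of all genes), and all 3 lay below for 0. The median log2 change was 0.20, against −0.01 for all genes, and ranged from 0.19 to 0.23 with 1 of the 6 libraries left out. DESeq2 called 21 higher and 0 lower. By part of the machinery, 6 of 38 small-subunit factors, 4 of 37 large-subunit factors and 2 of 13 factors of the box C/D and H/ACA particles rose. Relative to 5% CO2, the median member stood at 0.23, 0.25 and 0.17 log2 units in the 3 libraries at 10% CO2 and between −0.04 and 0.03 in those at 5% CO2.

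RRP9, which binds the U3 small nucleolar RNA, was at 44.5, 45.9 and 41.1 CPM at 5% CO2 and 59.1, 67.1 and 67.7 CPM at 10% CO2 (log2 change 0.56 ± 0.10, adjusted p = 0.018). NAT10, which acetylates cytidines of ribosomal RNA, was at 98.2, 99.8 and 93.0 CPM at 5% CO2 and 135, 136 and 124 CPM at 10% CO2 (log2 change 0.44 ± 0.08, adjusted p = 0.0182). WDR12, a part of the PeBoW complex of the large subunit, was at 55.7, 51.9 and 58.3 CPM at 5% CO2 and 80.6, 86.2 and 70.3 CPM at 10% CO2 (log2 change 0.51 ± 0.09, adjusted p = 0.018), and its partner BOP1 at 164, 179.5 and 147 CPM at 5% CO2 and 197, 232 and 238 CPM at 10% CO2 (log2 change 0.44 ± 0.10, adjusted p = 0.0327). In WDR12 the third library at 10% CO2 was the lowest of its group, and in BOP1 the first. WDR3, a small-subunit factor, was at 113, 105 and 117 CPM at 5% CO2 and 164, 154 and 137 CPM at 10% CO2 (log2 change 0.44 ± 0.08, adjusted p = 0.0182). TCOF1, which encodes treacle, a nucleolar partner of RNA polymerase I, was at 68.8, 67.0 and 61.3 CPM at 5% CO2 and 80.3, 94.6 and 90.03 CPM at 10% CO2 (log2 change 0.43 ± 0.09, adjusted p = 0.0222). The remaining called members were URB1 (0.45), BYSL (0.36), DDX10 (0.47), WDR75 (0.40), NOP56, a core protein of box C/D particles (0.36), and UTP18 (0.35), as log2 changes, with adjusted p from 0.0223 for URB1 to 0.0477 for UTP18. Each was higher in all 3 libraries at 10% CO2.

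Promoters of ribosome assembly genes often hold an E-box, CACGTG, the palindrome that MYC and related factors bind. In a RefSeq table of promoters (GRCh38.p14, 250 bases before to 50 after the start, 11523 of the 16402 tested genes matched), 25 of 72 matched assembly factors (34.7%) held it, against 1145 of 11523 tested genes (9.94%). Among matched called members of the list it was 4 of 10. The share was 13.2% (14 of 106) for all genes called higher and 9.64% (8 of 83) for genes called lower, near that of all genes. Windows of 120 bases are shown for 3 called assembly factors, because they carry the motif in the list with the most called members, and for INSIG1, a gene that fell and carries it as well. Capitals mark the E-box, and each sequence runs 5′ to 3′ on the gene's strand.
RRP9, chr3:51941904-51942023, minus strand, E-box from 5 bases before the start: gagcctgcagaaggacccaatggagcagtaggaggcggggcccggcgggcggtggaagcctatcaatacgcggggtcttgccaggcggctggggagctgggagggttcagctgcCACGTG
NAT10, chr11:34105509-34105628, plus strand, E-box from 15 bases before the start: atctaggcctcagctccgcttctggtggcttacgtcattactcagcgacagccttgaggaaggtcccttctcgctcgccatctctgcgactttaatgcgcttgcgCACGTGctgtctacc
UTP18, chr17:51260383-51260502, plus strand, E-box from 89 bases before the start (another lies 5 bases after it): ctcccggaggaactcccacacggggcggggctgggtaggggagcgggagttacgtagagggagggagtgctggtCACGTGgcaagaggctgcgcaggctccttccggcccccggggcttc
INSIG1, chr7:155297749-155297868, plus strand, E-box from 55 bases before the start: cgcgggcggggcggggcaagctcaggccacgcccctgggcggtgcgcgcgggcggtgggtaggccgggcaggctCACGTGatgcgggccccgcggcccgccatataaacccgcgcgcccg
The match describes these letters in this window. MYC itself was at 294, 311 and 329 CPM at 5% CO2 and 295, 337 and 353 CPM at 10% CO2 (log2 change 0.08 ± 0.10, adjusted p = 0.725), a difference within the spread. Of 11 genes of the MYC network, 0 were called by edgeR (0 higher and 1 lower at an unadjusted p under 0.05, and 0 higher and 1 lower by DESeq2).

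RNA polymerases I and III, which transcribe ribosomal RNA, tRNA and other short RNAs, had 3 rises and 0 falls among 37 tested subunits and factors (8.11% called higher, against 0.799% of all genes). Besides POLR3G these were the 2 largest subunits of polymerase I. POLR1B was at 43.7, 43.1 and 51.8 CPM at 5% CO2 and 66.9, 60.9 and 56.6 CPM at 10% CO2 (log2 change 0.41 ± 0.10, adjusted p = 0.0457). POLR1A was at 81.5, 81.3 and 106 CPM at 5% CO2 and 132, 130.5 and 107 CPM at 10% CO2 (log2 change 0.46 ± 0.11, adjusted p = 0.0495), with 5% CO2 replicate 3 and 10% CO2 replicate 3 almost equal, at 106 and 107 CPM. The list's median log2 change was 0.08, against −0.01 for all genes. The 75 tested cytosolic ribosomal proteins, the structural parts of the finished ribosome, had a median log2 change of 0.08 and 0 calls (6 higher and 0 lower at an unadjusted p under 0.05, 0 by DESeq2).

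Enzymes of nucleotide and polyamine synthesis supply the bases and cations that RNA synthesis uses. Of 23 tested, 3 rose and 0 fell (13.0% called higher, against 0.799% of all genes). GART, a trifunctional enzyme of purine synthesis, was at 74.1, 80.8 and 91.4 CPM at 5% CO2 and 114, 120.3 and 115 CPM at 10% CO2 (log2 change 0.50 ± 0.10, adjusted p = 0.0182). CAD, which starts pyrimidine synthesis, was at 70.4, 86.6 and 81.7 CPM at 5% CO2 and 105, 125 and 108 CPM at 10% CO2 (log2 change 0.50 ± 0.11, adjusted p = 0.0244). ODC1, the first enzyme of polyamine synthesis, was at 162, 187 and 184 CPM at 5% CO2 and 216, 264 and 231 CPM at 10% CO2 (log2 change 0.42 ± 0.10, adjusted p = 0.049). In each gene every library at 10% CO2 stood above every library at 5% CO2. GART overlaps SON on the other strand, and SON had a log2 change of −0.41 that did not pass (adjusted p = 0.0861).

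Serine synthesis and one-carbon metabolism supply serine, glycine, formyl groups and methyl groups. Of 19 tested enzymes 3 rose and 0 fell, 2 of the 3 enzymes of serine synthesis and 1 of 16 one-carbon enzymes (15.8% of the list, against 0.799% of all genes called higher), and all 3 libraries at 10% CO2 lay above those at 5% CO2 for 8 (42.1%, against 10.5% of all genes). Serine is made from a glycolytic intermediate by PHGDH, PSAT1 and PSPH in turn. PSAT1 was at 181, 179 and 205 CPM at 5% CO2 and 268, 269.9 and 265 CPM at 10% CO2 (log2 change 0.51 ± 0.09, adjusted p = 0.018), so the 10% CO2 libraries were nearly level and clear of the others. PSPH showed the same, at 21.5, 21.9 and 24.2 CPM at 5% CO2 and 31.0, 31.4 and 30.1 CPM at 10% CO2 (log2 change 0.45 ± 0.09, adjusted p = 0.0222). PHGDH did not pass, at 189, 192 and 201 CPM at 5% CO2 and 217, 252 and 283 CPM at 10% CO2 (log2 change 0.37 ± 0.10, adjusted p = 0.0763), although its groups did not overlap and DESeq2 called it (adjusted p = 0.038). MTFMT, which formylates the mitochondrial initiator tRNA with a one-carbon unit, was at 6.01, 7.28 and 6.17 CPM at 5% CO2 and 11.2, 11.0 and 9.18 CPM at 10% CO2 (log2 change 0.69 ± 0.13, adjusted p = 0.0202). The mitochondrial folate enzyme MTHFD2 (log2 change 0.25 ± 0.08, adjusted p = 0.104) and its partner SHMT2 (0.19 ± 0.10, adjusted p = 0.351) did not pass.

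Aminoacyl-tRNA synthetases load tRNAs with amino acids, with separate sets for the cytosol and for mitochondria. Of 17 mitochondrial synthetases 3 (17.6%, against 0.799% of all genes) rose and 0 fell: NARS2, the glutamyl enzyme EARS2 and the threonyl enzyme TARS2. EARS2 was at 32.4, 30.2 and 30.2 CPM at 5% CO2 and 44.4, 44.4 and 43.1 CPM at 10% CO2 (log2 change 0.51 ± 0.09, adjusted p = 0.0182) and TARS2 at 29.4, 37.2 and 37.0 CPM at 5% CO2 and 42.9, 53.2 and 50.8 CPM at 10% CO2 (log2 change 0.50 ± 0.12, adjusted p = 0.0464). Both groups of libraries were nearly level for EARS2, whereas 1 library in each group was low for TARS2. Of 20 cytosolic synthetases 0 were called by edgeR, with 10 higher and 1 lower at an unadjusted p under 0.05 and 2 higher by DESeq2, and the median log2 change was 0.17. All 3 libraries at 10% CO2 lay above those at 5% CO2 for 11 cytosolic (55%) and 8 mitochondrial synthetases (47.1%), against 10.5% of all genes. They lay below for 1 of each set (5% and 5.88%, against 10.2%). The core of the element that ATF4 binds with a C/EBP partner, TGATGNAA on either strand, stood in 6 of 16 matched promoters of cytosolic synthetases (37.5%) and 1 of 14 of mitochondrial ones (7.14%), against 204 of 11523 (1.77%). The share was 2.83% (3 of 106) for all genes called higher and 1.20% (1 of 83) for genes called lower, near that of all genes. Whether the mitochondrial and cytosolic sets differed in expression was not tested.

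The integrated stress response is the programme in which phosphorylated eIF2α favours translation of ATF4, which then activates amino acid genes. Its 28 tested genes did not move as a block: 2 rose (7.14%, against 0.799% of all genes called higher), 0 fell and the median log2 change was 0.02. Both called genes, PYCR1 and STC2, are ATF4 targets described above. ATF4 mRNA was at 670.0, 653 and 592 CPM at 5% CO2 and 635, 644 and 681 CPM at 10% CO2 (log2 change 0.03 ± 0.07, adjusted p = 0.854), and the stress factor DDIT3, also called CHOP, at 34.5, 33.2 and 29.4 CPM at 5% CO2 and 29.3, 27.3 and 38.1 CPM at 10% CO2 (log2 change −0.04 ± 0.13, adjusted p = 0.921). Both overlapped between the groups. TRIB3, another target, was at 292, 271 and 228 CPM at 5% CO2 and 245, 229.9 and 314 CPM at 10% CO2 (log2 change −0.00 ± 0.13, adjusted p = 0.994). ASNS, the asparagine synthetase, was at 64.5, 59.6 and 74.7 CPM at 5% CO2 and 81.1, 86.8 and 87.1 CPM at 10% CO2 and did not pass (log2 change 0.36 ± 0.10, adjusted p = 0.0751), although DESeq2 called it (adjusted p = 0.0317). Of 15 targets 7 (46.7%) lay higher in all 3 libraries at 10% CO2 and 0 lower, against 10.5% and 10.2% of all genes. Of 23 amino acid transporters 1 rose (4.35%, against 0.799% of all genes called higher). It was the glutamine carrier SLC1A5, at 304, 318 and 302 CPM at 5% CO2 and 370.0, 409 and 395 CPM at 10% CO2 (log2 change 0.35 ± 0.07, adjusted p = 0.0235).

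Mitochondria translate their own mRNAs on a separate ribosome, whose proteins are encoded in the nucleus. Of 81 tested proteins of the mitochondrial ribosome 3 rose and 0 fell, all of the large subunit (3.70%, against 0.799% of all genes called higher). MRPL33 was at 24.0, 24.0 and 23.7 CPM at 5% CO2 and 31.7, 30.3 and 32.6 CPM at 10% CO2 (log2 change 0.40 ± 0.09, adjusted p = 0.037), MRPL15 at 50.3, 52.9 and 53.9 CPM at 5% CO2 and 66.7, 68.1 and 73.5 CPM at 10% CO2 (log2 change 0.41 ± 0.09, adjusted p = 0.0325) and MRPL24 at 41.9, 41.5 and 44.4 CPM at 5% CO2 and 51.7, 56.3 and 60.3 CPM at 10% CO2 (log2 change 0.40 ± 0.09, adjusted p = 0.0382). The differences were 1.32-fold for MRPL33, 1.32-fold for MRPL15 and 1.32-fold for MRPL24, with the libraries of a group close together. MRPL33 overlaps BABAM2 on the same strand (mean 31.2 CPM) and RBKS on the other, neither of them called, which limits its count. Across the list the groups did not overlap for 39 members, 38 higher (46.9%, against 10.5% of all genes) and 1 lower (1.23%, against 10.2%), and the median log2 change was 0.16 (0.14 to 0.20 with 1 of the 6 libraries left out). Of 44 genes for mitochondrial DNA expression 1 rose (2.27%, against 0.799% of all genes called higher). It was MTERF3, a regulator of mitochondrial transcription and ribosome assembly, at 19.2, 18.0 and 20.2 CPM at 5% CO2 and 26.6, 29.3 and 27.6 CPM at 10% CO2 (log2 change 0.54 ± 0.12, adjusted p = 0.034). POLRMT, the mitochondrial RNA polymerase, was at 76.2, 79.3 and 67.9 CPM at 5% CO2 and 87.0, 99.7 and 99.8 CPM at 10% CO2 and did not pass (log2 change 0.36 ± 0.09, adjusted p = 0.0541; DESeq2 adjusted p = 0.0128).

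Import brings nuclear-encoded proteins into mitochondria, and the respiratory chain uses them beside those made inside. Of 24 genes of mitochondrial import, 0 were called by edgeR (10 higher and 0 lower at an unadjusted p under 0.05, 3 higher by DESeq2), with a median of 0.20. Of 75 nuclear subunits of the respiratory chain, 0 were called (9 higher and 0 lower at an unadjusted p under 0.05, 0 by DESeq2), with a median of 0.11. For the respiratory chain the median member stood at −0.02, 0.15 and 0.16 log2 units in the 3 libraries at 10% CO2, so 10% CO2 replicate 1 was level with the libraries at 5% CO2. Some other called genes act in the organelle and were chosen here after their values were seen. They are the complex IV assembly genes COA6 (log2 change 0.48 ± 0.10, adjusted p = 0.0222) and COA7 (0.39 ± 0.09, adjusted p = 0.037), the iron-sulfur protein gene CISD1 (0.61 ± 0.13, adjusted p = 0.0294), and RHOT1, which links mitochondria to microtubules (0.44 ± 0.11, adjusted p = 0.0466). PPIF, which encodes a cyclophilin of mitochondria, was instead called lower (log2 change −0.38 ± 0.09, adjusted p = 0.0464).

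The 13 mRNAs of mitochondrial DNA had the highest median of any list, 0.68, yet 0 were called by edgeR (7 higher and 0 lower at an unadjusted p under 0.05, 4 higher by DESeq2). MT-CO1, a core subunit of cytochrome c oxidase, was at 2565, 3441 and 2439 CPM at 5% CO2 and 7010.0, 6089 and 4061 CPM at 10% CO2 (log2 change 1.02 ± 0.30, adjusted p = 0.133). MT-ND5, a complex I subunit, was at 724, 867 and 633 CPM at 5% CO2 and 1393, 1233 and 938 CPM at 10% CO2 (log2 change 0.68 ± 0.20, adjusted p = 0.119). All 3 libraries at 10% CO2 were higher in both, with 10% CO2 replicate 3 nearest to the 5% CO2 libraries. MT-ATP6 overlapped between the groups, at 2196, 2859 and 1635 CPM at 5% CO2 and 4554, 4179 and 2234 CPM at 10% CO2 (log2 change 0.71 ± 0.35, adjusted p = 0.339). MT-ND3 differed by less than the spread, at 287, 371 and 336 CPM at 5% CO2 and 312, 356 and 363 CPM at 10% CO2 (log2 change 0.05 ± 0.11, adjusted p = 0.852). The median member stood at 0.97, 0.81 and 0.26 log2 units in the libraries at 10% CO2 and at −0.07, 0.35 and −0.25 at 5% CO2, which puts 10% CO2 replicate 3 below 5% CO2 replicate 2. These mRNAs are part of the mitochondrial share of counts given above, and RNA quality was not tested.

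Chaperones help proteins fold, and their co-chaperones steer them. Of 48 tested, 3 rose and 0 fell (6.25% called higher, against 0.799% of all genes). FKBP4, a co-chaperone of HSP90, was at 22.5, 28.2 and 27.4 CPM at 5% CO2 and 38.9, 48.1 and 37.2 CPM at 10% CO2 (log2 change 0.67 ± 0.14, adjusted p = 0.0239). DNAJC2, a ribosome-bound J protein, was at 35.6, 30.7 and 33.7 CPM at 5% CO2 and 45.5, 48.6 and 43.98 CPM at 10% CO2 (log2 change 0.46 ± 0.09, adjusted p = 0.0209). BAG2, a partner of HSP70, was at 31.6, 31.6 and 36.5 CPM at 5% CO2 and 44.1, 50.8 and 43.9 CPM at 10% CO2 (log2 change 0.48 ± 0.11, adjusted p = 0.0328). The groups were separate in all 3. DNAJB12, a J protein gene outside the list, was called lower (log2 change −0.42 ± 0.09, adjusted p = 0.0293). The abundant chaperones did not pass: HSP90AA1 was at 1178, 1076 and 1128 CPM at 5% CO2 and 1555, 1610.1 and 1169.8 CPM at 10% CO2 (log2 change 0.36 ± 0.16, adjusted p = 0.275) and HSPA8 at 1613, 1258 and 1438 CPM at 5% CO2 and 2341, 2487 and 1787 CPM at 10% CO2 (log2 change 0.62 ± 0.19, adjusted p = 0.134; DESeq2 adjusted p = 0.0123). In both, 10% CO2 replicate 3 was the lowest of its group. HSPA1A, the classic heat-inducible gene, was at 14.4, 9.76 and 10.7 CPM at 5% CO2 and 16.4, 15.1 and 11.2 CPM at 10% CO2 (log2 change 0.29 ± 0.23, adjusted p = 0.564). It has a near-identical copy, HSPA1B, so its count is uncertain. The median of the list was 0.20, and 20 members (41.7%, against 10.5% of all genes) lay higher in all 3 libraries at 10% CO2 and 1 lower (2.08%, against 10.2%).

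**Figure D4:**
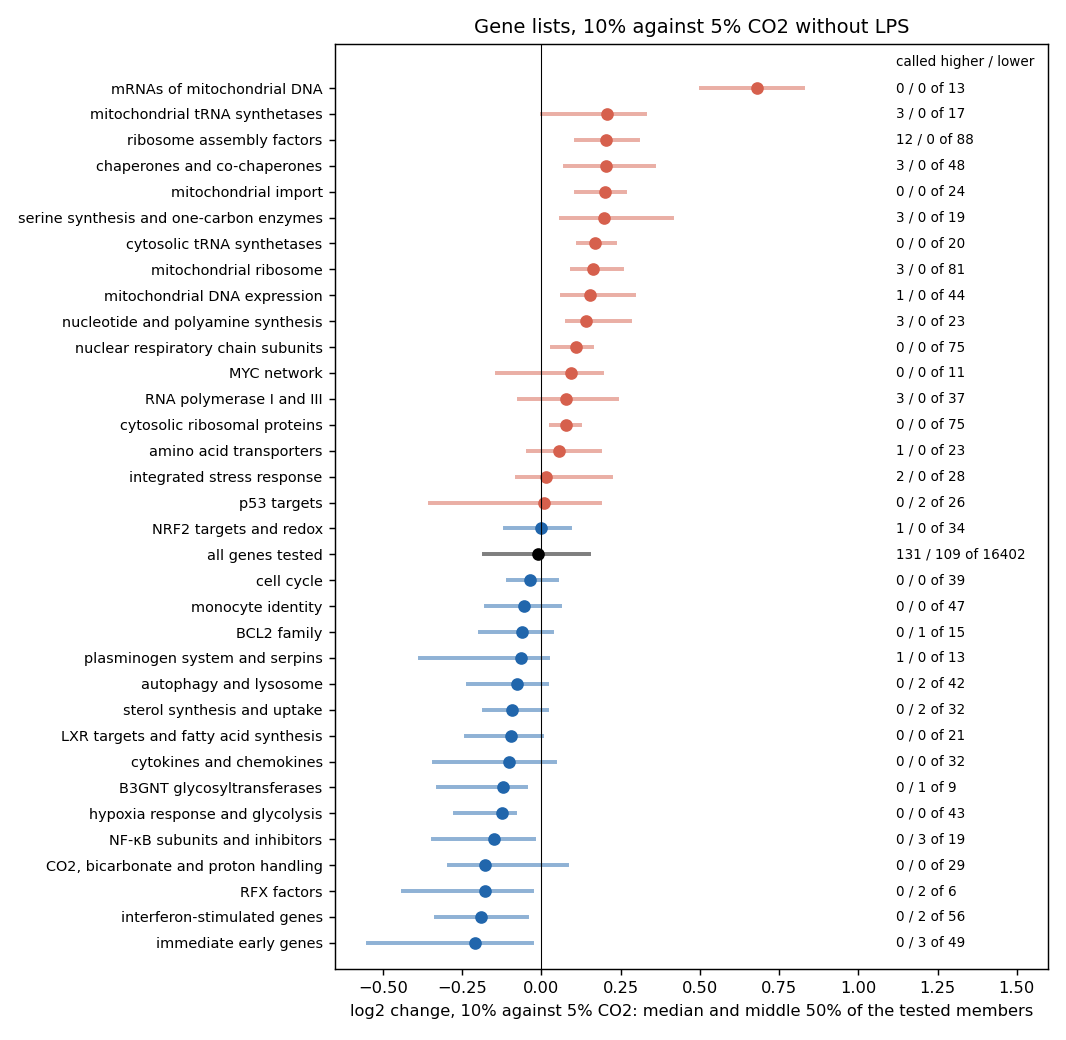
Each row is a gene list or all genes tested, with the median log2 change of its tested members at 10% against 5% CO2 (point) and their middle 50% (bar). Numbers on the right give members called higher, called lower and tested; the mRNAs of mitochondrial DNA have the highest median, 0.68, and immediate early genes the lowest, −0.21.

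NF-κB dimers drive many inflammatory genes and are held back by IκB proteins. Of 19 subunits and inhibitors tested, 0 rose and 3 fell (15.8%, against 0.665% of all genes called lower), and the median log2 change was −0.15. BCL3, an atypical IκB protein that acts on p50 and p52 in the nucleus (ENSG00000069399, chromosome 19, 44747705 to 44760044), was at 17.8, 18.2 and 13.7 CPM at 5% CO2 and 10.2, 7.60 and 9.63 CPM at 10% CO2 (log2 change −0.85 ± 0.17, adjusted p = 0.0222). RELB, the subunit of the alternative pathway, was at 35.3, 33.0 and 25.9 CPM at 5% CO2 and 18.7, 19.1 and 23.7 CPM at 10% CO2 (log2 change −0.61 ± 0.13, adjusted p = 0.0244). NFKBID, another nuclear IκB protein, was at 10.8, 9.76 and 7.89 CPM at 5% CO2 and 5.33, 4.71 and 7.33 CPM at 10% CO2 (log2 change −0.71 ± 0.16, adjusted p = 0.0382). In RELB and NFKBID the lowest library at 5% CO2, replicate 3, came close to the highest at 10% CO2, also replicate 3. The other subunits did not pass, with NFKB1 at 87.1, 75.1 and 77.5 CPM at 5% CO2 and 77.3, 71.4 and 73.9 CPM at 10% CO2 (log2 change −0.11 ± 0.11, adjusted p = 0.664) and RELA at 113, 109.8 and 95.3 CPM at 5% CO2 and 86.6, 84.1 and 96.3 CPM at 10% CO2 (log2 change −0.25 ± 0.09, adjusted p = 0.172). NFKBIA, the classic inhibitor IκBα, overlapped, at 85.9, 73.5 and 68.2 CPM at 5% CO2 and 63.5, 51.8 and 71.4 CPM at 10% CO2 (log2 change −0.29 ± 0.11, adjusted p = 0.178).

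A κB motif, GGNNTTTCC on either strand, stood in 8 of 16 matched promoters of this list (50%), against 6.76% of all tested genes with a promoter. For genes called lower the share was 9.64% (8 of 83), and for genes called higher 6.60% (7 of 106). Of the 3 called members, BCL3 held it. Its window of 120 bases is shown because BCL3 had the largest fall among them, with the motif in capitals as read on the gene's strand.
BCL3, chr19:44748532-44748651, plus strand, κB motif from 105 bases before the start: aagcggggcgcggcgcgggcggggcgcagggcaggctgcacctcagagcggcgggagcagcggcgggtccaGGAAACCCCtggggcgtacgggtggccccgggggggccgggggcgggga

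Cytokines and chemokines are the best-known NF-κB targets, and 0 of 32 were called by edgeR (1 higher and 7 lower at an unadjusted p under 0.05, 3 lower by DESeq2). TNF was at 31.2, 31.9 and 21.1 CPM at 5% CO2 and 14.9, 8.52 and 20.8 CPM at 10% CO2 (log2 change −0.92 ± 0.27, adjusted p = 0.119; DESeq2 adjusted p = 0.0296). CXCL8, the neutrophil chemokine IL-8, was at 21.4, 15.7 and 10.7 CPM at 5% CO2 and 11.0, 9.43 and 9.76 CPM at 10% CO2 (log2 change −0.66 ± 0.22, adjusted p = 0.153; DESeq2 adjusted p = 0.0133). IL1B was at 22.0, 16.04 and 19.5 CPM at 5% CO2 and 20.5, 14.8 and 17.8 CPM at 10% CO2 (log2 change −0.12 ± 0.17, adjusted p = 0.756). For TNF the highest library at 10% CO2 was just under the lowest at 5% CO2, and the groups overlapped for CXCL8 and IL1B. IL6 was at 0 counts in all 6 libraries, which allows up to 0.165 CPM in the shallowest of them, for counting error alone.

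Immediate early genes are switched on within minutes of a stimulus and include AP-1, EGR and mRNA decay factors. Of 49 tested, 0 rose and 3 fell (6.12%, against 0.665% of all genes called lower), and the median log2 change of −0.21 was the lowest of the lists. All 3 belong to the decay and antiproliferative group. TOB1, a partner of the CCR4-NOT deadenylase, was at 29.5, 25.9 and 28.0 CPM at 5% CO2 and 19.3, 16.4 and 18.2 CPM at 10% CO2 (log2 change −0.63 ± 0.10, adjusted p = 0.0124). BTG2, of the same family, was at 26.5, 25.9 and 22.5 CPM at 5% CO2 and 19.5, 12.01 and 15.5 CPM at 10% CO2 (log2 change −0.67 ± 0.13, adjusted p = 0.0211). ZFP36, which binds AU-rich elements of cytokine mRNAs and speeds their decay, was at 82.6, 91.9 and 72.1 CPM at 5% CO2 and 55.9, 54.9 and 68.7 CPM at 10% CO2 (log2 change −0.46 ± 0.11, adjusted p = 0.0432). TOB1 separated the groups most clearly, and ZFP36 least, with 68.7 CPM in 10% CO2 replicate 3 against 72.1 CPM in 5% CO2 replicate 3. FOS was at 25.8, 25.5 and 20.2 CPM at 5% CO2 and 20.9, 18.7 and 24.0 CPM at 10% CO2 (log2 change −0.17 ± 0.14, adjusted p = 0.554) and EGR1 at 18.2, 18.9 and 13.3 CPM at 5% CO2 and 12.6, 12.8 and 14.1 CPM at 10% CO2 (log2 change −0.35 ± 0.17, adjusted p = 0.3). The median member stood at −0.18, −0.36 and −0.13 log2 units at 10% CO2 and at 0.12, 0.02 and −0.14 at 5% CO2, so 5% CO2 replicate 3 was level with 10% CO2 replicate 3.

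Interferon-stimulated genes encode antiviral proteins and their regulators. Of 56 tested, 0 rose and 2 fell (3.57%, against 0.665% of all genes called lower), and the groups did not overlap for 19 (33.9%), all lower at 10% CO2, against 10.2% of all genes lower. MX1, an antiviral GTPase, was at 38.9, 45.6 and 45.6 CPM at 5% CO2 and 25.6, 33.0 and 31.2 CPM at 10% CO2 (log2 change −0.54 ± 0.13, adjusted p = 0.0436). It was lower in all 3 libraries at 10% CO2. IFI44L, a widely used interferon marker, was at 5.47, 5.29 and 4.87 CPM at 5% CO2 and 4.01, 4.61 and 4.59 CPM at 10% CO2 and did not pass (log2 change −0.24 ± 0.16, adjusted p = 0.445), nor did IFIT1 (log2 change −0.22 ± 0.30, adjusted p = 0.749). The median log2 change was −0.19 (−0.25 to −0.13 with 1 of the 6 libraries left out).

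The factor p53 switches on genes of cell cycle arrest and death. Of 26 p53 targets 0 rose and 2 fell, BTG2 and TP53INP1 (7.69%, against 0.665% of all genes called lower), and the median log2 change was 0.01. All 3 libraries at 10% CO2 lay below those at 5% CO2 for 6 (23.1%, against 10.2% of all genes) and above for 4 (15.4%, against 10.5%). DESeq2 called 0 higher and 4 lower. TP53INP1, which promotes cell cycle arrest and autophagy, was at 5.56, 3.86 and 6.41 CPM at 5% CO2 and 2.10, 3.14 and 3.13 CPM at 10% CO2 (log2 change −0.93 ± 0.19, adjusted p = 0.0231). CDKN1A, the p21 gene and the best-known p53 target, overlapped, at 114, 147 and 114 CPM at 5% CO2 and 86.6, 96.3 and 125 CPM at 10% CO2 (log2 change −0.28 ± 0.13, adjusted p = 0.254). Of 15 BCL2 family genes 1 fell (6.67%, against 0.665% of all genes called lower). It was the BH3-only death gene BMF, at 36.0, 25.9 and 22.4 CPM at 5% CO2 and 18.7, 11.1 and 15.5 CPM at 10% CO2 (log2 change −0.89 ± 0.20, adjusted p = 0.0422). Replicate 1 was the highest library of each group for BMF. MCL1, a survival gene, was at 482, 436 and 417 CPM at 5% CO2 and 445, 358 and 367 CPM at 10% CO2 (log2 change −0.19 ± 0.10, adjusted p = 0.33).

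Sterol genes are controlled by SREBP2, which INSIG1 holds in the endoplasmic reticulum when sterols are plentiful. Of 33 listed genes 32 were tested, 0 rose and 2 fell (6.25%, against 0.665% of all genes called lower). INSIG1 (ENSG00000186480, chromosome 7, 155297776 to 155310235) was at 66.2, 76.6 and 66.2 CPM at 5% CO2 and 46.5, 39.9 and 47.1 CPM at 10% CO2 (log2 change −0.65 ± 0.10, adjusted p = 0.0124). IDI1, an isomerase early in the pathway, was at 57.3, 64.2 and 65.6 CPM at 5% CO2 and 48.8, 46.7 and 44.9 CPM at 10% CO2 (log2 change −0.41 ± 0.09, adjusted p = 0.034). INSIG1 was 1.56-fold and IDI1 1.33-fold lower, and neither overlapped between the groups. HMGCS1 was at 119, 131 and 144 CPM at 5% CO2 and 107, 91.0 and 105 CPM at 10% CO2 and did not pass (log2 change −0.38 ± 0.10, adjusted p = 0.0559; DESeq2 adjusted p = 0.0152). SREBF2, the gene of SREBP2, was at 467, 508 and 473 CPM at 5% CO2 and 418, 394 and 466 CPM at 10% CO2 (log2 change −0.18 ± 0.08, adjusted p = 0.241), with the groups separated by less than 1 CPM. Of 21 LXR targets and fatty acid genes 0 were called by edgeR (1 higher and 3 lower at an unadjusted p under 0.05, 1 lower by DESeq2). In that list ABCA1, the cholesterol exporter, varied most, at 110.1, 72.4 and 85.1 CPM at 5% CO2 and 76.7, 30.4 and 42.4 CPM at 10% CO2 (log2 change −0.84 ± 0.42, adjusted p = 0.35).

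Carbonic anhydrases, transporters of bicarbonate and protons and acid sensors are the genes closest to CO2 itself. Of 42 listed genes of this kind 29 were tested, and 0 were called by edgeR (2 higher and 2 lower at an unadjusted p under 0.05, 0 by DESeq2). The median log2 change was −0.18, but it ranged from −0.13 to −0.04 with 1 of the 6 libraries left out. CA2, the cytosolic carbonic anhydrase, was at 3047, 2839.7 and 2625 CPM at 5% CO2 and 3428, 3513 and 3194 CPM at 10% CO2 (log2 change 0.25 ± 0.08, adjusted p = 0.103). Its groups did not overlap, and its fold change was 1.19. The sodium bicarbonate carrier SLC4A7 was at 10.2, 7.55 and 12.5 CPM at 5% CO2 and 17.4, 15.8 and 12.5 CPM at 10% CO2 (log2 change 0.58 ± 0.19, adjusted p = 0.126), and its highest library at 5% CO2 matched its lowest at 10% CO2. GPR132, a receptor linked to acid sensing, was at 64.1, 49.2 and 43.6 CPM at 5% CO2 and 42.1, 28.9 and 35.7 CPM at 10% CO2 (log2 change −0.55 ± 0.23, adjusted p = 0.252).

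Hypoxia and glycolysis genes had a median log2 change of −0.13, and 0 of 43 were called by edgeR (2 higher and 12 lower at an unadjusted p under 0.05, 2 higher and 5 lower by DESeq2). All 3 libraries at 10% CO2 lay below those at 5% CO2 for 13 (30.2%, against 10.2% of all genes). HIF1A was at 89.2, 80.2 and 85.8 CPM at 5% CO2 and 87.6, 78.7 and 73.6 CPM at 10% CO2 (log2 change −0.09 ± 0.09, adjusted p = 0.639). PDK1, which limits entry of pyruvate into mitochondria, was at 30.8, 30.1 and 34.2 CPM at 5% CO2 and 27.7, 24.4 and 23.8 CPM at 10% CO2 (log2 change −0.33 ± 0.12, adjusted p = 0.152). HK2, a hexokinase, went against the list, at 33.0, 21.8 and 27.8 CPM at 5% CO2 and 47.6, 37.6 and 38.0 CPM at 10% CO2 (log2 change 0.57 ± 0.14, adjusted p = 0.0524; DESeq2 adjusted p = 0.0108).

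Genes that mark the monocyte had 0 calls. Of 47 tested genes of monocyte identity, edgeR called 0 (3 higher and 2 lower at an unadjusted p under 0.05, 2 higher and 1 lower by DESeq2), with a median of −0.06. SPI1, the PU.1 factor, was at 322, 315 and 269 CPM at 5% CO2 and 261, 266 and 308 CPM at 10% CO2 (log2 change −0.12 ± 0.10, adjusted p = 0.592), and CSF1R, the M-CSF receptor, at 134, 103 and 97.6 CPM at 5% CO2 and 95.3, 76.4 and 89.6 CPM at 10% CO2 (log2 change −0.36 ± 0.17, adjusted p = 0.296). Of 39 cell cycle genes 0 were called (1 higher and 0 lower at an unadjusted p under 0.05, 0 by DESeq2), with a median of −0.04. Of 34 NRF2 and redox genes 1 rose (2.94%, against 0.799% of all genes called higher). It was CBR1, at 9.08, 12.02 and 10.4 CPM at 5% CO2 and 15.2, 19.2 and 17.6 CPM at 10% CO2. HMOX1 varied widely in both groups, at 107, 51.9 and 78.0 CPM at 5% CO2 and 59.4, 24.6 and 74.4 CPM at 10% CO2 (log2 change −0.58 ± 0.53, adjusted p = 0.623). Of 13 genes of the plasminogen system 1 rose, SERPINB2 (7.69%, against 0.799% of all genes called higher). That list, too, was chosen with earlier results of these data known, so its share carries no weight for the system. The activator PLAU (log2 change −0.21 ± 0.23, adjusted p = 0.677) and its receptor PLAUR (−0.38 ± 0.24, adjusted p = 0.457) did not pass.

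Of 42 autophagy and lysosome genes 0 rose and 2 fell (4.76%, against 0.665% of all genes called lower), both of the autophagosome. ATG13, a part of the ULK1 complex that starts autophagy, was at 138, 139 and 131 CPM at 5% CO2 and 107, 104 and 108 CPM at 10% CO2 (log2 change −0.35 ± 0.08, adjusted p = 0.0425). WIPI2, which binds the forming membrane, was at 94.8, 95.6 and 84.5 CPM at 5% CO2 and 71.9, 70.9 and 75.5 CPM at 10% CO2 (log2 change −0.33 ± 0.08, adjusted p = 0.0425). ATG13 was 1.28-fold and WIPI2 1.26-fold lower, with little spread. Of 9 B3GNT enzymes 1 fell, B3GNT7 (11.1%, against 0.665% of all genes called lower), and B3GNT2 did not pass (log2 change −0.05 ± 0.10, adjusted p = 0.847). The small B3GNT and RFX lists, like the others, were chosen with earlier results of these data known. Their shares therefore carry no weight for either family. Of 6 RFX factors 2 fell (33.3%, against 0.665% of all genes called lower). They were RFX8, and RFX2, at 67.0, 64.3 and 52.0 CPM at 5% CO2 and 42.6, 38.7 and 47.7 CPM at 10% CO2 (log2 change −0.51 ± 0.12, adjusted p = 0.0485). RFX5, which drives MHC class II genes, was at 115, 119.6 and 109.6 CPM at 5% CO2 and 103, 119.7 and 122 CPM at 10% CO2 (log2 change 0.00 ± 0.08, adjusted p = 0.993).

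By kind of gene, 222 of the 240 were protein-coding and 13 were long non-coding RNAs in GENCODE release 44. Genes called higher were shorter than genes called lower. Their median exon length was 3601 bases (middle 50%, 2621 to 5396 bases), against 5649 (3806 to 8977) for genes called lower. All genes tested had a median of 4350, but most called genes were protein-coding and well expressed. The median was 5106 for tested genes averaging 5 CPM or more, and 5009 for protein-coding tested genes. Against these 2 medians the larger gap was that of genes called higher, and genes called lower were only slightly longer. Median GC content was 51.2% for genes called higher and 49.9% for genes called lower, against 48.7% for all genes. Chromosome 19 held 20 of the 109 genes called lower (18.3%) and 4 of the 131 called higher (3.05%), against 7.57% of all genes tested. BCL3, RELB, NFKBID, ZFP36, RFX2 and ZSWIM4 are among those 20. The mean GC content of genes, weighted by their counts in each library, was 49.8%, 50.2% and 49.5% at 5% CO2 and 49.2%, 49.6% and 50.3% at 10% CO2. The extremes were 10% CO2 replicates 1 and 3, which were also the least alike of any pair within a group. Between their counts the chi-square per degree of freedom was 29.2, against 8.91 to 15.9 for the other pairs. The cause was not tested.

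The 6 libraries with LPS gave a second reading of the CO2 difference in cells of the same line. Both readings share 1 estimate of each gene's spread, so a call in both is not an independent repeat. Of the 240 genes called without LPS, 228 (95%) had the same direction with LPS, against 69.6% of all genes tested. With LPS 1435 genes (8.75%) were called, 703 higher (4.29%) and 732 lower (4.46%). The balance depended on the scaling: 1190 of 1720 calls (69.2%) were higher with GC content offsets and 505 of 1475 (34.2%) without TMM factors. In all, 157 genes were called in the same direction in both, which is 65.4% of the 240 and 10.9% of the 1435. By direction, 92 of the 131 rises and 65 of the 109 falls were called again. The median log2 change with LPS was 0.42 for genes called higher at rest and −0.45 for genes called lower. RRP9, PSAT1, PYCR1, FKBP4 and POLR3G were among the rises called in both, with changes with LPS of 0.45, 0.51, 0.53, 0.87 and 0.98. RFX8, B3GNT7, TTLL3 and INSIG1 were among the falls called in both, at −1.10, −1.24, −0.63 and −0.46.

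Several falls at rest were near 0 with LPS. BCAR3 had a log2 change of 0.00 with LPS (adjusted p = 0.995), RELB 0.06 (adjusted p = 0.814), BTG2 0.02 (adjusted p = 0.929), BCL3 −0.16 (adjusted p = 0.545) and BMF −0.10 (adjusted p = 0.786). The test of the difference between the CO2 change with and without LPS did not pass for any of the 5 (edgeR interaction, adjusted p = 0.466 for BCAR3, 0.289 for RELB, 0.276 for BTG2, 0.598 for BCL3 and 0.68 for BMF). Over all genes 4 passed it (0.0244%), of which HIVEP2 was also called at rest.

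**Figure D5:**
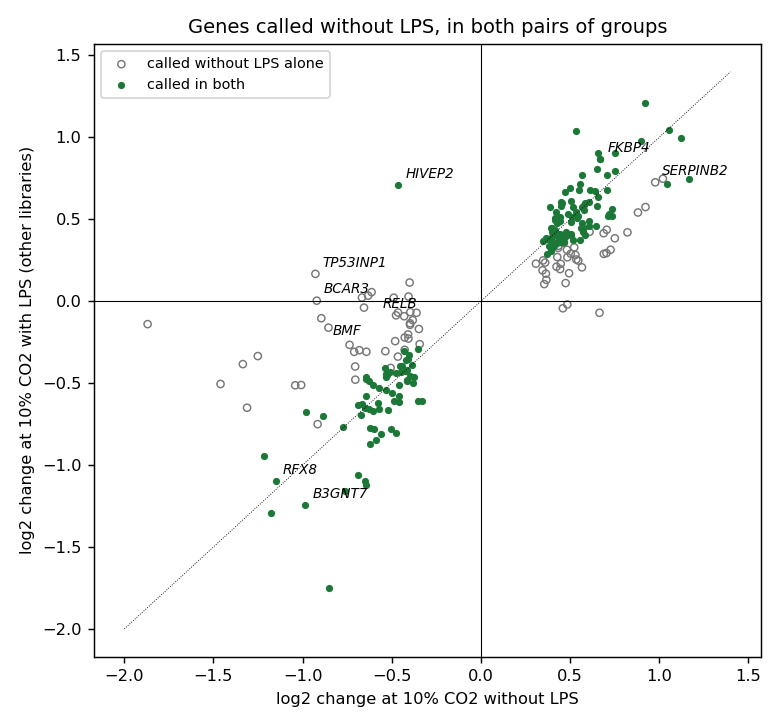
Each point is 1 of the 240 genes called at rest, with its log2 change at 10% against 5% CO2 without LPS on the x axis and with LPS, in other libraries, on the y axis; filled points were called in both, and the dotted line marks equal changes. Of the 240, 228 lie in the lower left or upper right quadrant, and HIVEP2 stands apart at −0.46 and 0.71.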

How the data were processed

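Poly(A)-selected RNA of THP-1 cells was sequenced in paired ends in 12 libraries. The deposited values are raw counts per gene in 1 table per library. Per the submitters' processing notes, reads were trimmed with Trimmomatic 0.36, aligned with STAR 2.5.2b to GRCh38 and counted with featureCounts of Subread 1.5.2. The sources used here do not state strand setting, annotation release or the treatment of multi-mapping reads, so counts of overlapping genes and near-identical copies are uncertain.

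Groups came from sample titles. Counts of all 12 libraries were fitted with edgeR 4.0.16 in R 4.3.3 (filterByExpr, TMM, robust quasi-likelihood, 4 group means), and 10% minus 5% CO2 without LPS was tested over 16402 genes with Benjamini-Hochberg adjustment. The model's common biological coefficient of variation was 10.7%, with 8 residual degrees of freedom. Errors of log2 changes are standard errors. The procedure was tested on simulated data. Alternatives were DESeq2 1.42.0, no count filter, no TMM factors, GC offsets, the replicate number as a block, the 6 resting libraries alone and each library left out.

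The comparison, the 33 gene lists and the naming rule were chosen with earlier results of these data known. The rule named the 15 largest rises and falls with a symbol, a mean of at least 5 CPM and no overlap between groups, up to 4 called members per list, interaction genes called at rest, and 22 genes regardless of their result. Results of some named genes are not reported here. Other list members given with values were chosen after their values were seen. Lists got no set test. GC content was computed from the GRCh38 sequence over the exons deposited with the counts. Gene type came from GENCODE 44, promoters from RefSeq (GRCh38.p14).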

Additional observations from a re-analysis of the deposited data

Results flagged for a closer look

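The CO2 difference with LPS was set against that without LPS by an interaction term in edgeR's quasi-likelihood model, and 4 genes passed an adjusted p of 0.05. In all 4 the level at 10% CO2 was lower than at 5% CO2 without LPS and higher with LPS. HIVEP2, a large zinc finger protein that binds κB-like enhancers, was at 40.3, 41.5 and 43.4 CPM at 5% CO2 and 33.2, 27.2 and 30.4 CPM at 10% CO2 without LPS (log2 change −0.46 ± 0.10, adjusted p = 0.0349). With LPS it was at 121, 102 and 139 CPM at 5% CO2 and 198, 195 and 198 CPM at 10% CO2 (0.71 ± 0.10, adjusted p = 0.000972). The difference of the log2 changes was 1.17 ± 0.14 (adjusted p = 0.00255). It passed in all 12 fits that left out 1 library, with values from 1.06 to 1.28 and adjusted p up to 0.0189.

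The other 3 genes passed narrowly. PDGFA, a growth factor chain, was at 6.10, 4.91 and 5.25 CPM at 5% CO2 and 3.28, 3.09 and 3.66 CPM at 10% CO2 without LPS and at 30.4, 30.6 and 41.9 CPM at 5% CO2 and 47.4, 61.1 and 51.6 CPM at 10% CO2 with it, a difference of 1.33 ± 0.22 (adjusted p = 0.046). CD44, the hyaluronan receptor, was at 131, 111 and 102 CPM at 5% CO2 and 92.8, 75.5 and 71.4 CPM at 10% CO2 without LPS and at 254, 203 and 249 CPM at 5% CO2 and 392, 408 and 302 CPM at 10% CO2 with it, a difference of 1.17 ± 0.19 (adjusted p = 0.046). STARD4, a sterol carrier, was at 19.7, 17.9 and 19.8 CPM at 5% CO2 and 14.3, 14.1 and 14.7 CPM at 10% CO2 without LPS and at 63.0, 64.2 and 72.7 CPM at 5% CO2 and 83.4, 111 and 89.4 CPM at 10% CO2 with it, a difference of 0.92 ± 0.15 (adjusted p = 0.046). Each of the 3 kept its call in 3 of the 12 fits that left out 1 library, with adjusted p up to 0.238. GC content offsets ended the call for STARD4 (adjusted p = 0.0756) and CD44 (0.121), and leaving out TMM factors ended it for PDGFA (0.0643) and STARD4 (0.0983). None of the 3 passed the test of CO2 without LPS alone, where the adjusted p was 0.0513 for PDGFA, 0.0591 for CD44 and 0.0754 for STARD4. Groups of 3 libraries are too small for a check of single outlying samples.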

How the results depend on the processing

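The count of 240 genes moved with the model and with single libraries. It was 572 with no filter on low counts, 659 with offsets for GC content, 655 with DESeq2 and 71 with the 6 resting libraries alone. Leaving out each of the 12 libraries in turn gave 0 to 511. With the replicate number as a block it was 699. With block and GC offsets together it was 1890, of which 801 (42.4%) were higher, against 54.6% of the 240. Of the 240 genes, 240 were called with the block, 238 with GC offsets, 237 with DESeq2, 191 without TMM factors, 61 with the resting libraries alone, and 114 without 5% CO2 replicate 3. Leaving 1 resting library out leaves 2 in its group, judged by a spread shared with the other groups. The cause of these moves was not tested.

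The 4 genes of the interaction became 108 with no filter, 2 without TMM factors, 11 with the block, 5 with GC offsets, 58 with block and GC offsets, 51 with DESeq2 and 1 to 37 with 1 library left out. With LPS the 1435 genes became 3003 with block and GC offsets and 271 to 1804 with 1 library left out. The difference in mitochondrial share ranged from 0.887 to 1.41 percentage points with 1 library left out, and was 1.13 with nuclear counts as the denominator.

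Same-numbered libraries did not deviate together throughout: correlations between groups ran from −0.36 to 0.58 and passed 0.1 in 12 of 18 pairs, and 6 of 12 libraries correlated best with their own number. Pairs numbered 1 ran from 0.25 to 0.58, those numbered 2 from −0.19 to 0.43 and those numbered 3 from −0.36 to 0.29. Libraries numbered 1 thus did deviate together. The labels do not say what a number marks, so the main fit did not use the numbers, and the block is given as an alternative. A floor of 3 counts equalled 0.132 to 0.165 CPM in the resting libraries, so changes of genes near it were not detectable at this depth.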

Other observations

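Called genes outside the lists were looked through after their values were seen, so those named here carry no weight beyond their own test. The smallest adjusted p of the comparison belonged to SLC39A14, a zinc and iron importer, at 52.4, 47.9 and 48.8 CPM at 5% CO2 and 85.7, 82.5 and 68.8 CPM at 10% CO2 (log2 change 0.67 ± 0.09, adjusted p = 0.00856, edgeR's quasi-likelihood test). MT1X, a metallothionein that binds zinc, was at 15.1, 13.7 and 15.1 CPM at 5% CO2 and 20.6, 25.2 and 22.8 CPM at 10% CO2 (log2 change 0.64 ± 0.12, adjusted p = 0.018). Both zinc-related genes were higher in all 3 libraries at 10% CO2. DPH2, of the first step of diphthamide synthesis, was at 63.8, 65.8 and 59.3 CPM at 5% CO2 and 79.0, 82.7 and 84.6 CPM at 10% CO2 (log2 change 0.38 ± 0.09, adjusted p = 0.0356), and EEF2KMT, a lysine methyltransferase of elongation factor 2, at 10.1, 10.8 and 11.1 CPM at 5% CO2 and 14.8, 16.8 and 15.01 CPM at 10% CO2 (log2 change 0.54 ± 0.13, adjusted p = 0.0422). DPH2 and EEF2KMT act on elongation factor 2, as does DPH5, whose reads could not be told from those of DPH5-DT with certainty. Other enzymes that modify this factor were not gathered in a list, so no share is given. GOT1, the cytosolic aspartate aminotransferase, was at 11.3, 12.2 and 12.7 CPM at 5% CO2 and 16.4, 19.1 and 19.7 CPM at 10% CO2 (log2 change 0.61 ± 0.11, adjusted p = 0.018), DYNLL1, a dynein light chain, at 150.4, 143 and 152 CPM at 5% CO2 and 217, 243 and 219 CPM at 10% CO2 (log2 change 0.61 ± 0.10, adjusted p = 0.0149), and FYN, a Src-family kinase, at 14.8, 15.99 and 19.3 CPM at 5% CO2 and 24.7, 27.4 and 27.0 CPM at 10% CO2 (log2 change 0.66 ± 0.11, adjusted p = 0.018).

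Among surface and signalling genes of myeloid cells the direction was mixed. TREM2, a lipid receptor of macrophages, was at 33.3, 31.1 and 31.3 CPM at 5% CO2 and 41.8, 45.1 and 54.1 CPM at 10% CO2 (log2 change 0.56 ± 0.11, adjusted p = 0.0182). CD38, an enzyme that consumes NAD, was at 64.2, 51.4 and 49.3 CPM at 5% CO2 and 40.7, 33.2 and 31.7 CPM at 10% CO2 (log2 change −0.64 ± 0.13, adjusted p = 0.0211). PTPRC, which encodes CD45, was at 229, 226 and 237 CPM at 5% CO2 and 195, 174 and 175 CPM at 10% CO2 (log2 change −0.35 ± 0.08, adjusted p = 0.0358), and VIM, the intermediate filament vimentin, at 143, 149 and 131 CPM at 5% CO2 and 93.9, 91.7 and 98.7 CPM at 10% CO2 (log2 change −0.57 ± 0.09, adjusted p = 0.0124). RIPK1, a kinase of death receptor signalling, was at 30.6, 26.3 and 25.9 CPM at 5% CO2 and 21.4, 15.1 and 16.5 CPM at 10% CO2 (log2 change −0.64 ± 0.12, adjusted p = 0.0184), CFLAR, an inhibitor of caspase 8, at 115, 94.0 and 105 CPM at 5% CO2 and 88.3, 70.5 and 79.2 CPM at 10% CO2 (log2 change −0.40 ± 0.10, adjusted p = 0.048), and INSR, the insulin receptor, at 79.4, 78.6 and 79.8 CPM at 5% CO2 and 59.8, 64.8 and 48.9 CPM at 10% CO2 (log2 change −0.46 ± 0.11, adjusted p = 0.0472). All 5 of RIPK1, CFLAR, CD38, PTPRC and VIM fell with no overlap between the groups. With LPS the log2 change was −0.66 for VIM (adjusted p = 0.000945) and −0.58 for CD38 (adjusted p = 0.0102), and 0.11 for CFLAR (adjusted p = 0.495). Each call in this section was lost without 10% CO2 replicate 2, where edgeR called 0 genes (1845 at an unadjusted p under 0.05, and 655 by DESeq2 with all libraries).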
